A study of Danio rerio with 4 samples.

Results

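Matrix metalloproteases (Mmps), Adams, Adamts proteases and tissue inhibitors of metalloproteases (Timps) were examined in sorted cells of the zebrafish caudal hematopoietic tissue (CHT), the vascular site of the embryonic tail where blood stem and progenitor cells settle. The members were all rows of the deposited gene table whose symbol begins with mmp, adam or timp and a number, or with adamts, in either case of letters, with 1 symbol left out by the rule. They came to 66 of the 31947 genes listed, namely 23 Mmp, 14 Adam, 23 Adamts or Adamts-like (Adamtsl) and 6 Timp genes. By their labelled cell types, CHT-EC libraries were taken to come from cells positive for mCherry under the kdrl promoter, an endothelial reporter, and CHT-HSPC libraries from cells positive for GFP under the CD41 promoter, which marks hematopoietic stem and progenitor cells and also thrombocytes. Both groups were sorted by flow cytometry from embryo tails at 52 hours post fertilisation, with 2 libraries per group. The labels give no treatment, strain or allele beyond the reporters, and do not say whether 1 line carried both. Whether the 2 libraries of a group had different clutches or sorts behind them is not stated, so the p-values reflect only how far these 4 libraries spread, and that spread may be technical.

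Mmps, Adams and Adamts proteases share a zinc-dependent catalytic domain and work at or outside the cell surface. Mmps cut collagens, other matrix proteins and growth factor carriers, Adams are membrane proteins of which many release the outer parts of receptors and ligands, and Adamts proteases are secreted enzymes that trim procollagens and proteoglycans. Timps bind the active site and block it. In blood-forming tissue these enzymes are known for remodelling the matrix around vessels and for helping leukocytes and stem cells pass through it. In the zebrafish embryo, Mmp9 made by macrophages has been tied to the movement of stem and progenitor cells out of their site of origin.

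The library totals lay between 27514202 and 32268535 counts, and the CHT-EC libraries held transcripts of several other cell types. Summed over marker lists, neutrophil genes took 17767 and 14265 CPM (TMM-scaled CPM, the count of a gene relative to the size of its library) in CHT-EC against 604 and 1006 CPM in CHT-HSPC, and macrophage genes 676 and 408 against 26.5 and 28.6 CPM. Notochord genes took 14149 and 3521 CPM in the CHT-EC pair versus 66.7 and 101 CPM in the CHT-HSPC pair, and epidermal genes 3658 and 2008 against 1349 and 519 CPM. Mesenchyme and fibroblast genes took 4141 and 2104 CPM in the CHT-EC pair versus 2540 and 921 CPM in the CHT-HSPC pair. Endothelial genes took only 445 and 170 CPM in CHT-EC, against 105 and 63.5 CPM in CHT-HSPC, with 1 of 17 tested higher in CHT-EC. Thrombocyte genes took 1081 and 641 CPM in CHT-EC against 2629 and 2167 CPM in CHT-HSPC, stem and progenitor genes 654 and 943 against 2242 and 2432 CPM, erythroid genes 19236 and 34733 against 2206 and 1398 CPM, and muscle genes 2113 and 4651 against 11085 and 1304 CPM. The groups are called by their labels, and in such bulk samples fewer cells of a type and less RNA per cell cannot be told apart.

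Of the 66 members, 64 had at least 1 count and 54 passed the filter on low counts. Among these 54, 4 were higher in CHT-EC (mmp9, mmp13a, mmp11b and adam19b), or 7.41% of the members tested, where 3.78% of all 19016 genes tested were higher in CHT-EC (quasi-likelihood F-test of edgeR at a Benjamini-Hochberg threshold of 0.05). None was higher in CHT-HSPC, where the share of all genes tested was 0.752%. At an unadjusted p under 0.05 the members on the CHT-EC side numbered 20 of 54, against 14.6% of all genes tested. Those on the CHT-HSPC side numbered 0, against 9.23%, and DESeq2 and limma-voom also placed 0 members higher in CHT-HSPC. The median log2 ratio (the fitted log2 fold change of CHT-EC over CHT-HSPC, given below as ± its SE) of the members tested was 1.27, against 0.02 over all genes tested. It was positive for 44 of 54 members, against 50.8% of all genes tested. The ratios of adamts6 and TIMP4 are not defined, as they had no CHT-HSPC count. Set at the ratio from a floor of 3 counts, both stayed above the median, so it was bound to remain 1.27. The CHT-EC libraries lay entirely above the CHT-HSPC libraries for 28 of 54 members, against 30.6% of all genes tested, and entirely below for 3, against 27.9%. Below, a percentage in brackets after a number of calls is the share over all genes. The number called depended on the fit. Higher in CHT-EC were 15 of 55 members with DESeq2 (10.9% of all genes), 19 of 64 without the low-count filter (8.50%), 4 with limma-voom (3.71%) and 3 with library totals alone (2.48%). Without the filter, edgeR gave adjusted p-values far smaller than 2 libraries per group can bear out, and so did DESeq2. For mmp9 they were 1.00e-19 in edgeR without the filter and 2.54e-16 with DESeq2, against 0.00763 in the reported fit. A pass without the filter or with DESeq2, here and below, therefore carries little weight. Leaving out a library gave 3 without CHT-EC replicate 1 (0.546% of all genes), 8 without CHT-EC replicate 2 (2.82%), 7 without CHT-HSPC replicate 1 (3.59%) and 8 without CHT-HSPC replicate 2 (4.24%). All these fits placed 0 members higher in CHT-HSPC, where the shares of all genes were, in the same order, 3.91%, 3.26%, 1.23%, 0.542%, 0.0492%, 0.300%, 0.540% and 0.683%.

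**Figure D1:**
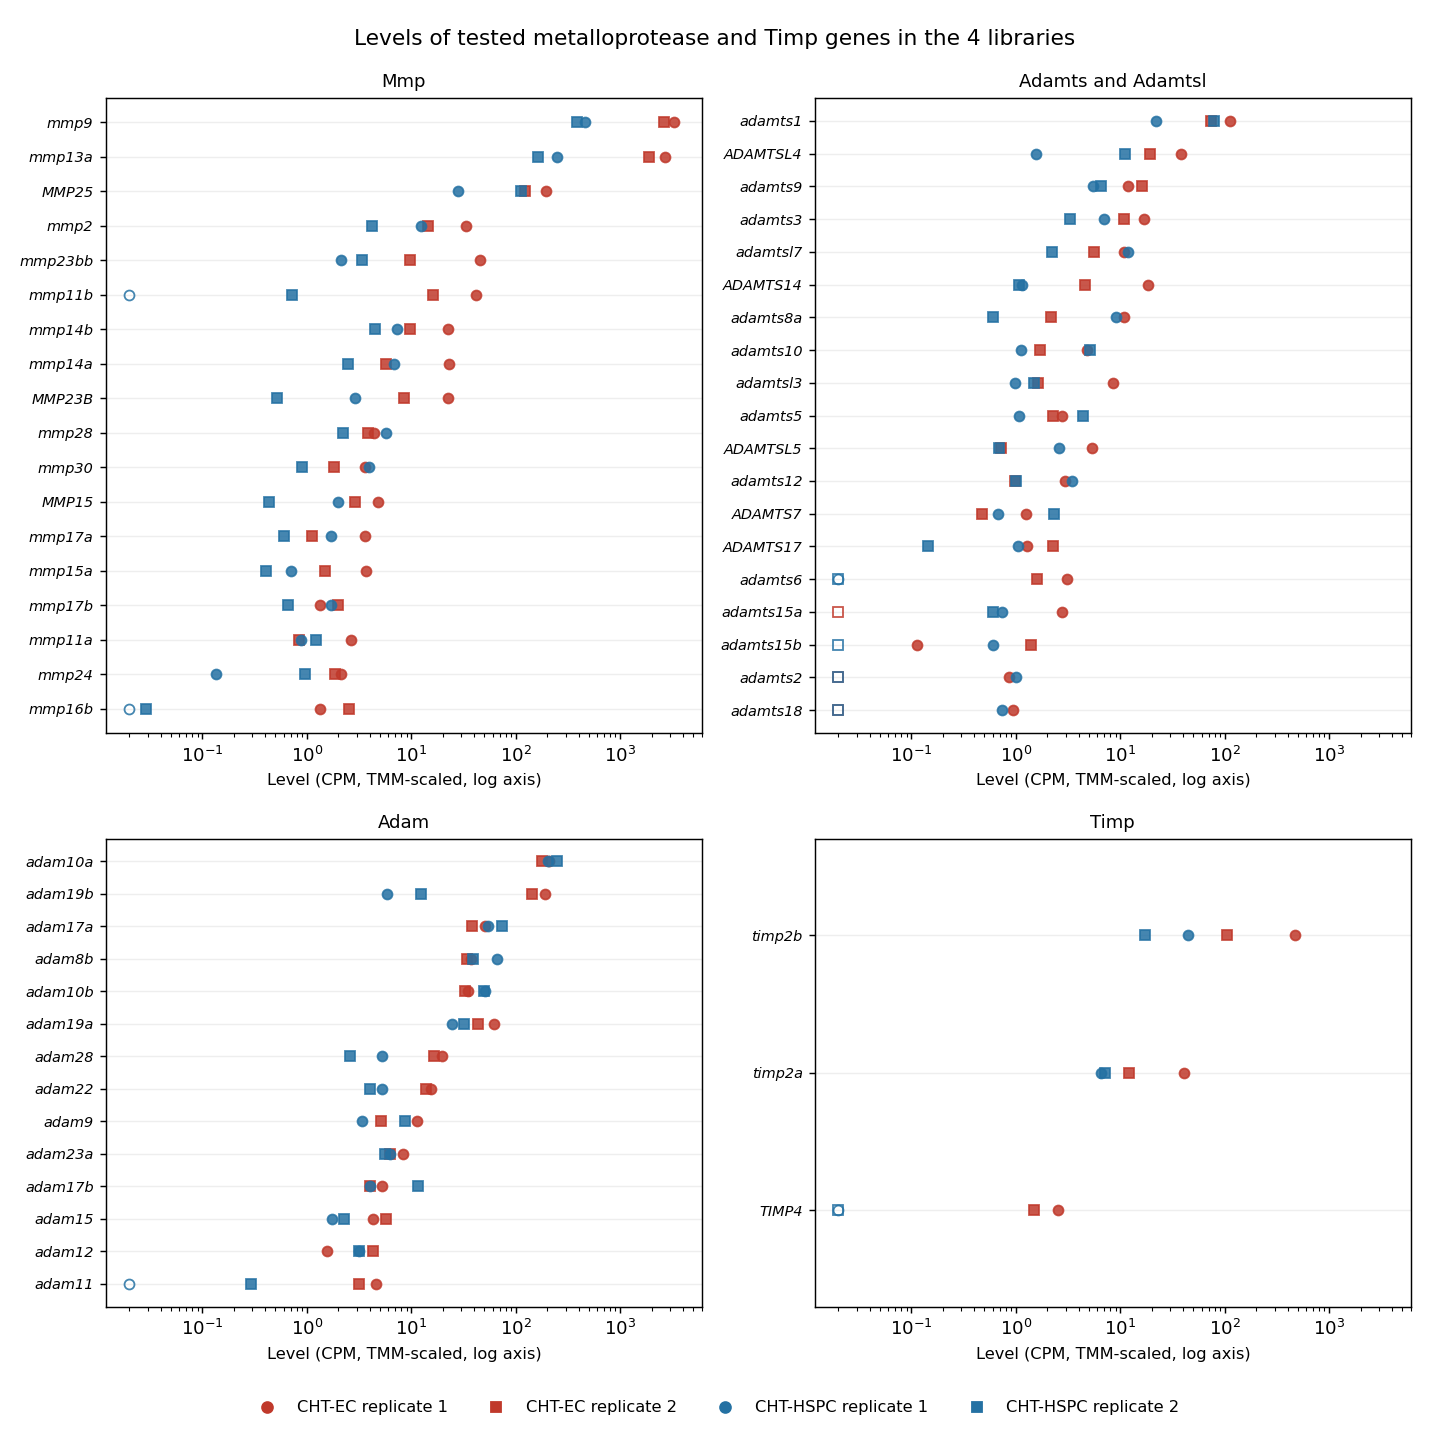
Level of each tested member in every library, in CPM on a log axis, in 4 panels by family, with CHT-EC in red and CHT-HSPC in blue, replicate 1 as circles and replicate 2 as squares. Open symbols at 0.02 CPM stand for 0 counts. The red symbols of mmp9, mmp13a and adam19b lie far to the right of the blue ones, and those of adam10a are mixed with them.

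The gelatinases are named for cutting denatured collagen and basement membrane collagen. mmp9 (ENSDARG00000042816), gelatinase B, which mature neutrophils store in granules in mammals, stood at 3251 and 2652 CPM in the CHT-EC libraries versus 457 and 382 CPM in the CHT-HSPC pair. The 2 groups were far apart and the libraries within each were close. The means were 2951 ± 423 CPM for CHT-EC versus 419 ± 52.8 CPM for CHT-HSPC (SD, n = 2 libraries each), a 7.04-fold higher level in CHT-EC (log2 ratio 2.81 ± 0.26, adjusted p = 0.00763). mmp2 (ENSDARG00000017676), gelatinase A, a product of mesenchymal cells in mammals, stood at 33.1 and 14.3 CPM in the CHT-EC libraries versus 12.4 and 4.22 CPM in the CHT-HSPC pair. CHT-EC replicate 2 lay just above CHT-HSPC replicate 1, and mmp2 did not pass the test (log2 ratio 1.51 ± 0.64, adjusted p = 0.209).

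The collagenase mmp13a (ENSDARG00000012395), which opens the triple helix of fibrillar collagen, was the other Mmp with many counts, at 2686 and 1892 CPM in CHT-EC against 246 and 162 CPM in CHT-HSPC. Its level averaged 2289 ± 561 CPM for CHT-EC versus 203 ± 59.4 CPM for CHT-HSPC, a difference of 11.2-fold (log2 ratio 3.49 ± 0.33, adjusted p = 0.00810). The second copy, mmp13b, had 1 and 3 counts in the CHT-EC libraries versus 11 and 4 counts in the CHT-HSPC pair and was not tested. Together mmp9 and mmp13a supplied 93.6% and 95.7% of all Mmp counts in the CHT-EC libraries versus 90.1% and 80.0% in the CHT-HSPC pair (95% Wilson intervals 93.4 to 93.7%, 95.6 to 95.8%, 89.7 to 90.5% and 79.5 to 80.5%, which cover counting error only). These are shares of counts, which grow with transcript length, and not of molecules. Between the pair, mmp9 took 54.8% and 58.4% of the counts in the CHT-EC libraries versus 65% and 70.3% in the CHT-HSPC pair, so the share of mmp13a was larger in both CHT-EC libraries; this difference was not tested. The calls of mmp9 and mmp13a were kept in all 9 alternative fits, those that leave out 1 library included. Both genes lay on the CHT-EC side, as did the neutrophil list, which holds no member and in which 8 of 10 tested were called there. The macrophage list, with 8 of 12, the erythroid list, with 7 of 9, and the notochord list, with 5 of 7, lay on that side too. In CHT-HSPC c1qa, c1qb and c1qc had 0 counts. The thrombocyte list and the stem and progenitor list went the other way, with 4 called in each. The part of any of these cell types in the difference was not tested.

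mmp11b (ENSDARG00000016718), a copy of stromelysin-3, an Mmp that stromal cells secrete in mammals already in active form, had 1103 and 470 counts in the CHT-EC libraries versus 0 and 25 counts in the CHT-HSPC pair. Its level was 28.7 ± 17.9 CPM for CHT-EC versus 0.361 ± 0.511 CPM for CHT-HSPC (log2 ratio 6.25 ± 1.28, adjusted p = 0.0447). All CHT-HSPC counts came from replicate 2. The call lay near the threshold and ended without CHT-EC replicate 1 (adjusted p = 0.228), with library totals alone (0.0615), with DESeq2 (0.0647) and with limma-voom (0.152), and was kept in the other 5 alternative fits. The related mmp11a stood at 2.62 and 0.85 CPM in the CHT-EC libraries versus 0.876 and 1.21 CPM in the CHT-HSPC pair, so its groups overlapped.

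The membrane-type Mmps stay anchored at the cell surface, where Mmp14 activates Mmp2. They number 10, of which 9 were tested; all 9 had a positive log2 fold change (0.48 to 2.22, and 6.66 for mmp16b, whose CHT-HSPC count was 1) and none passed the threshold. MMP25 (ENSDARG00000010556), a membrane-type Mmp of leukocytes in mammals, had the most counts of them, with 193 and 123 CPM in the CHT-EC pair versus 27.7 and 113 CPM in the CHT-HSPC pair. CHT-HSPC replicate 2 reached nearly the level of CHT-EC replicate 2, and the test was not passed (log2 ratio 1.17 ± 0.61, adjusted p = 0.291), while without CHT-HSPC replicate 2 the log2 ratio was 2.55 (adjusted p = 0.0227). mmp14a stood at 23.1 and 5.74 CPM in the CHT-EC libraries versus 6.81 and 2.46 CPM in the CHT-HSPC pair, and mmp14b at 22.5 and 9.72 against 7.28 and 4.48 CPM. In both copies of Mmp14 replicate 1 was the higher library in each group. mmp16b had 36 and 75 counts in the CHT-EC libraries versus 0 and 1 in the CHT-HSPC pair, so that the ratio was 127, with an exact (Clopper-Pearson) 95% counting interval of 22.4 to 5066. The gene missed the threshold in edgeR (adjusted p = 0.0796) and passed with DESeq2 (0.00435) and without the low-count filter (0.0117). MMP15, mmp15a, mmp17a, mmp17b and mmp24 were each at or below 4.76 CPM in every library.

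Both Mmp23 genes, which encode Mmps anchored by their amino-terminal end, lay higher in each CHT-EC library than in each CHT-HSPC library without passing the test in the reported fit. mmp23bb was at 45.1 and 9.75 CPM in the CHT-EC libraries versus 2.12 and 3.38 CPM in the CHT-HSPC pair (log2 ratio 3.31 ± 0.76, adjusted p = 0.0612). MMP23B was at 22.5 and 8.43 CPM in the CHT-EC libraries versus 2.90 and 0.52 CPM in the CHT-HSPC pair (log2 ratio 3.18 ± 0.91, adjusted p = 0.0988). In each of them CHT-EC replicate 1 was the highest library. mmp23bb passed with DESeq2 (9.68e-05), without the low-count filter (2.04e-08) and without CHT-EC replicate 2 (0.0144), and the fits in which MMP23B passed included those with DESeq2 (0.00277), without the filter (1.67e-05) and without CHT-HSPC replicate 1 (0.0281). Among the remaining Mmps, mmp28 was at 4.38 and 3.84 CPM in the CHT-EC libraries versus 5.76 and 2.2 CPM in the CHT-HSPC pair, and mmp30 at 3.64 and 1.80 against 3.98 and 0.896 CPM, both with overlapping groups. mmp19, mmp20a, mmp20b and mmp25a had at most 16 counts over the 4 libraries and were not tested; mmp20b had no count in CHT-EC.

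**Figure D2:**
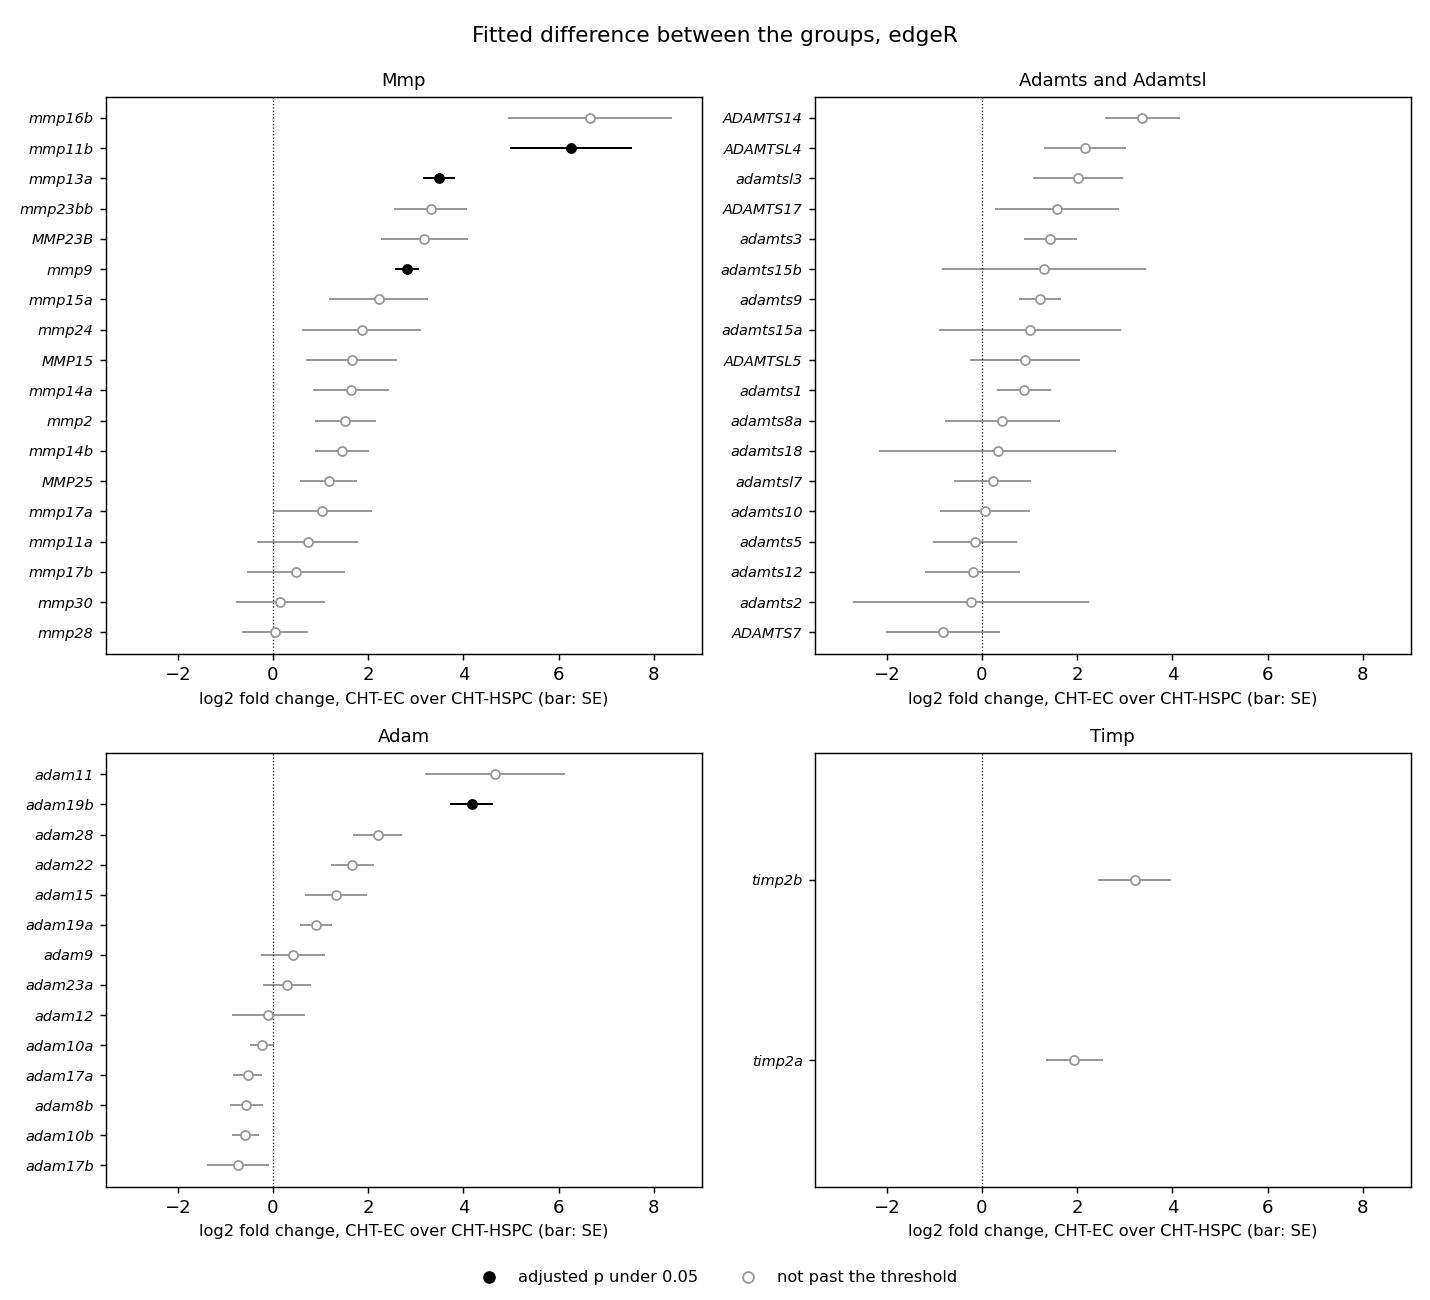
Fitted log2 fold change of CHT-EC over CHT-HSPC with its SE for 52 tested members, in 4 panels by family; filled points are past an adjusted p of 0.05. Left out are adamts6 and TIMP4, whose counts were 0 in both CHT-HSPC libraries. All Mmp points lie on the positive side, and the points of adam10a, adam10b, adam17a and adam17b lie on the negative side with no call.

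The Adam10 and Adam17 sheddases cut many surface proteins, Notch receptors and cytokine precursors among them. All 4 genes had a negative log2 fold change and none passed the test. adam10a (ENSDARG00000053468), the Adam with the most counts, stood at 207 and 177 CPM in the CHT-EC libraries versus 204 and 246 CPM in the CHT-HSPC pair. The libraries of the groups were mixed (log2 ratio −0.23 ± 0.25, adjusted p = 0.636). adam17a (ENSDARG00000043213), the protease that releases tumour necrosis factor, was at 50.8 and 38.2 CPM in the CHT-EC libraries versus 54.5 and 74.3 CPM in the CHT-HSPC pair (log2 ratio −0.53 ± 0.31, adjusted p = 0.345). adam10b was at 34.9 and 32.8 CPM in the CHT-EC libraries versus 51.3 and 49.8 CPM in the CHT-HSPC pair (adjusted p = 0.265), and adam17b at 5.29 and 4.01 against 4.01 and 11.5 CPM. With adam8b (ENSDARG00000057644), a leukocyte Adam, adam10b and adam17a were the 3 tested members for which every CHT-HSPC library lay above every CHT-EC library. Its levels were 37.4 and 33.8 CPM in the CHT-EC libraries versus 66.0 and 38.7 CPM in the CHT-HSPC pair, with means of 35.6 ± 2.52 CPM for CHT-EC versus 52.3 ± 19.3 CPM for CHT-HSPC (log2 ratio −0.56 ± 0.35, adjusted p = 0.375).

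Among the other proteolytic Adams, adam19b (ENSDARG00000067545), a copy of meltrin beta, which sheds neuregulin in mammals, was called. It stood at 188 and 142 CPM in the CHT-EC libraries versus 5.80 and 12.5 CPM in the CHT-HSPC pair, with no overlap. The means were 165 ± 32.9 CPM for CHT-EC versus 9.14 ± 4.73 CPM for CHT-HSPC, an 18-fold higher level in CHT-EC (log2 ratio 4.17 ± 0.45, adjusted p = 0.0101), and the call was kept in all 9 alternative fits (highest adjusted p 0.0448, without CHT-EC replicate 1). Its copy adam19a was at 62.2 and 43.5 CPM in the CHT-EC libraries versus 24.8 and 31.7 CPM in the CHT-HSPC pair (log2 ratio 0.90 ± 0.33, adjusted p = 0.159). Within the pair, adam19b took 75.2% and 76.5% of the counts in the CHT-EC libraries versus 19% and 28.2% in the CHT-HSPC pair (95% Wilson intervals 74.1 to 76.2%, 75.4 to 77.6%, 16.6 to 21.6% and 26.0 to 30.5%). These intervals, too, cover counting error only and not the spread between libraries. Both CHT-EC shares lay above both CHT-HSPC shares, and a share does not depend on how the libraries are scaled. The difference in share between the groups was not tested.

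adam28, an Adam of lymphocytes in mammals, was at 19.6 and 16.4 CPM in the CHT-EC libraries versus 5.22 and 2.60 CPM in the CHT-HSPC pair (log2 ratio 2.2 ± 0.51, adjusted p = 0.0623). The fits in which it passed included those with DESeq2 (0.00118), with limma-voom (0.0401), without the low-count filter (0.00140) and without CHT-HSPC replicate 1 (0.0444). adam9 was at 11.2 and 5.10 CPM in the CHT-EC libraries versus 3.37 and 8.76 CPM in the CHT-HSPC pair, and adam12, an Adam of muscle and mesenchyme in mammals, at 1.57 and 4.32 against 3.17 and 3.12 CPM, both with overlapping groups. adam15 was at 4.31 and 5.78 CPM in the CHT-EC libraries versus 1.75 and 2.25 CPM in the CHT-HSPC pair, with no overlap and no call (adjusted p = 0.271).

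The 3 Adams whose mammalian forms lack protease activity and act as adhesion or ligand receptors, mostly in neurons, did not pass the test in the reported fit. adam22 was at 15.5 and 13.9 CPM in the CHT-EC libraries versus 5.26 and 4.02 CPM in the CHT-HSPC pair (log2 ratio 1.67 ± 0.45, adjusted p = 0.0884). It passed with DESeq2 (0.00855) and without the low-count filter (0.0332). adam11 had 122 and 92 counts in the CHT-EC libraries versus 0 and 10 in the CHT-HSPC pair (log2 ratio 4.67 ± 1.47, adjusted p = 0.120). All its CHT-HSPC counts came from replicate 2. The fits in which adam11 passed included those with DESeq2 (0.00417) and without the filter (0.00286). adam23a was at 8.28 and 6.22 CPM in the CHT-EC libraries versus 6.24 and 5.55 CPM in the CHT-HSPC pair, so its groups overlapped.

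**Figure D3:**
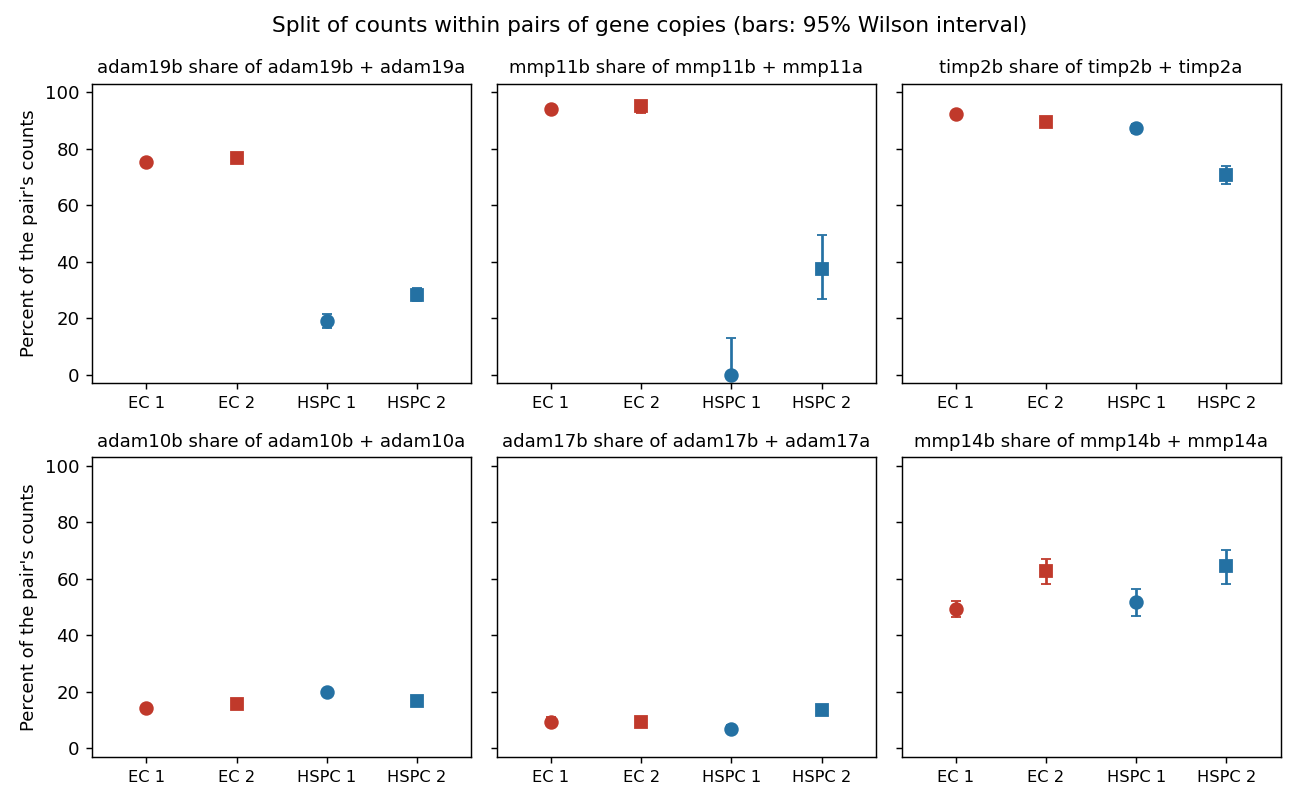
Share of the first-named copy in the counts of a pair of gene copies, in percent, for each library, with 95% Wilson intervals; CHT-EC libraries are on the left in red and CHT-HSPC libraries on the right in blue. The share of adam19b is 75.2% and 76.5% in the CHT-EC libraries versus 19% and 28.2% in the CHT-HSPC pair, whereas that of adam10b lies between 14.4% and 20.1% in all 4 libraries.

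The same shares were taken for other pairs of copies, without a test. adam10b took 14.4% and 15.6% of adam10 counts in the CHT-EC libraries versus 20.1% and 16.8% in the CHT-HSPC pair, and adam17b took 9.42% and 9.51% of adam17 counts in the CHT-EC libraries versus 6.86% and 13.4% in the CHT-HSPC pair. The share of mmp14b was 49.3% and 62.9% in the CHT-EC libraries versus 51.7% and 64.6% in the CHT-HSPC pair, so the 2 replicates 1 were close to each other, as were the 2 replicates 2. mmp11b took 94.0% and 94.9% of mmp11 counts in the CHT-EC libraries versus 0% (0 of 26) and 37.3% (25 of 67) in the CHT-HSPC pair, where the upper Wilson bound for replicate 1 was 12.9%. Reads that map to both copies could have been split or dropped in the authors' counting, so the level of a single copy is uncertain.

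No Adamts or Adamts-like gene passed the threshold, out of 19 tested. An unadjusted p under 0.05 in edgeR was reached by 5 on the CHT-EC side (14.6%) and 0 on the CHT-HSPC side (9.23%). DESeq2 placed ADAMTS14, adamts6 and ADAMTSL4 higher in CHT-EC (10.9%), and limma-voom placed 0 there (3.71%). The proteoglycanases, which cut versican and aggrecan, had mixed values. adamts1 (ENSDARG00000103519) was at 112 and 73.4 CPM in the CHT-EC libraries versus 22.1 and 78.9 CPM in the CHT-HSPC pair. Only CHT-HSPC replicate 1 stood apart, and without CHT-HSPC replicate 2 the gene was called (log2 ratio 0.88 ± 0.56, adjusted p = 0.390 with all libraries, and 2.1 with adjusted p = 0.0425 without that one). adamts9 (ENSDARG00000077778) was at 11.9 and 16.1 CPM in the CHT-EC libraries versus 5.53 and 6.48 CPM in the CHT-HSPC pair (log2 ratio 1.22 ± 0.45, adjusted p = 0.161). adamts8a was at 10.8 and 2.17 CPM in the CHT-EC libraries versus 9.03 and 0.607 CPM in the CHT-HSPC pair, high in both replicates 1. adamts5 was at 2.74 and 2.28 CPM in the CHT-EC libraries versus 1.08 and 4.42 CPM in the CHT-HSPC pair.

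The procollagen N-proteinases remove the amino-terminal propeptide of fibrillar collagens. adamts3 (ENSDARG00000060127), which in mammals and zebrafish also takes part in Vegfc activation, was at 16.9 and 10.7 CPM in the CHT-EC libraries versus 6.91 and 3.33 CPM in the CHT-HSPC pair (log2 ratio 1.44 ± 0.55, adjusted p = 0.176). ADAMTS14 was at 18.3 and 4.59 CPM in the CHT-EC libraries versus 1.15 and 1.07 CPM in the CHT-HSPC pair (log2 ratio 3.37 ± 0.79, adjusted p = 0.0642). Within CHT-EC, replicate 1 was the higher library. adamts2 had 23 and 0 counts in the CHT-EC libraries versus 30 and 0 in the CHT-HSPC pair, so only the replicates 1 held any.

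Of the remaining Adamts genes, adamts6 had 82 and 47 counts in CHT-EC and 0 in both CHT-HSPC libraries. Against a floor of 3 counts over the group, its level was 49.2-fold higher in CHT-EC. Neither the counting error of the CHT-EC counts nor the spread between libraries is part of that value. The edgeR test missed the threshold (adjusted p = 0.0564). adamts10 and ADAMTS7 were at 4.83 and 1.70 and at 1.24 and 0.476 CPM in CHT-EC, against 1.11 and 5.12 and 0.674 and 2.34 CPM in CHT-HSPC, with CHT-HSPC replicate 2 highest in both genes. adamts13, whose human form trims von Willebrand factor, had 1 count in CHT-EC replicate 1 and 0 in the other 3 libraries. Among the Adamts-like genes, which lack the protease domain and bind matrix fibres, ADAMTSL4 (ENSDARG00000063407) was at 38.3 and 19.1 CPM in the CHT-EC libraries versus 1.55 and 11.2 CPM in the CHT-HSPC pair (log2 ratio 2.17 ± 0.86, adjusted p = 0.185), and was called without CHT-HSPC replicate 2 (4.25, adjusted p = 0.0196). adamtsl3 was at 8.43 and 1.63 CPM in the CHT-EC libraries versus 0.977 and 1.5 CPM in the CHT-HSPC pair. adamtsl2 had 14 and 6 counts in CHT-EC, none in CHT-HSPC, and was not tested. Against the floor of 3 counts over the group it was 7.63-fold higher in CHT-EC, again without the counting error of the CHT-EC counts.

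The inhibitors lay on the CHT-EC side but varied widely between its libraries, and none of the 3 tested passed the threshold. With 3.78% of all genes tested higher in CHT-EC, no call among 3 says little. timp2b (ENSDARG00000075261), the Timp with the most counts, had 470 and 105 CPM in the CHT-EC pair versus 44.8 and 17.3 CPM in the CHT-HSPC pair. CHT-EC replicate 1 was far above the other 3 libraries, and the groups did not overlap. The means were 287 ± 258 CPM for CHT-EC versus 31.0 ± 19.4 CPM for CHT-HSPC (log2 ratio 3.21 ± 0.76, adjusted p = 0.0659). The fits in which timp2b passed included those without CHT-EC replicate 2 (3.94, adjusted p = 0.0159), without CHT-HSPC replicate 1 (4.06, adjusted p = 0.0429), with DESeq2 (4.61e-05) and without the low-count filter (1.48e-19). Its log2 ratio was 1.77 (adjusted p = 0.247) without CHT-EC replicate 1. Notochord markers, at 14149 and 3521 CPM in CHT-EC, were also higher in CHT-EC replicate 1, and 5 of 7 tested were called on the CHT-EC side. In CHT-HSPC they were at 66.7 and 101 CPM, higher in replicate 2, unlike timp2b. The neutrophil, macrophage, epidermal, endothelial, thrombocyte and mesenchyme lists were also higher in CHT-EC replicate 1, and the erythroid, muscle and stem and progenitor lists in replicate 2. Without thbs1b the thrombocyte sum, too, was higher in CHT-EC replicate 2. The part of any of these cell types in the timp2b values was not tested. timp2a (ENSDARG00000061226) was at 40.3 and 12.1 CPM in the CHT-EC libraries versus 6.50 and 7.17 CPM in the CHT-HSPC pair (log2 ratio 1.94 ± 0.60, adjusted p = 0.116); it passed with DESeq2 (0.0160), without the low-count filter (0.00109) and without CHT-EC replicate 2 (0.0379), and its log2 ratio was 0.83 without CHT-EC replicate 1.

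Of the 3 rows for Timp4, TIMP4 (ENSDARG00000090394) had 68 and 44 counts in CHT-EC and 0 in both CHT-HSPC libraries. Against a floor of 3 counts over the group it was 42.8-fold higher in CHT-EC, without the counting error of the CHT-EC counts. It missed the threshold in edgeR (adjusted p = 0.0649) and passed with DESeq2 (0.000499) and without the low-count filter (0.00208). A second row named TIMP4 (ENSDARG00000102617) had 7 counts, all in CHT-HSPC replicate 2, and timp4a and TIMP3 had 0 counts in every library. A count of 0 allows up to 3 counts, or 0.112 and 0.102 CPM in the CHT-EC libraries and 0.101 and 0.0867 CPM in the CHT-HSPC libraries. Summed over each family, Timps came to 513 and 118 CPM in the CHT-EC pair versus 51.3 and 24.7 CPM in the CHT-HSPC pair, and Mmps to 6345 and 4750 CPM in the CHT-EC pair versus 779 and 680 CPM in the CHT-HSPC pair. Without mmp9 and mmp13a the Mmp sum was 409 and 206 CPM in the CHT-EC pair versus 77.2 and 136 CPM in the CHT-HSPC pair. The Adam sum was 652 and 526 CPM in the CHT-EC pair versus 435 and 491 CPM in the CHT-HSPC pair, and the Adamts and Adamtsl sum 255 and 145 against 72.2 and 121 CPM.

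Many members differed by more than 2-fold between the libraries of a group. CHT-EC replicate 1 was more than 2-fold above CHT-EC replicate 2 for 24 of the 54 members tested (44.4%), against 17.5% of all genes tested, and the reverse held for 2 members, adam12 and adamts15b. By family these 24 comprised 10 of 18 Mmp, 1 of 14 Adam, 11 of 19 Adamts or Adamtsl and 2 of 3 Timp genes. In CHT-HSPC, replicate 1 was more than 2-fold above replicate 2 for 19 members (35.2%, against 13.7% of all genes) and the reverse held for 13 (24.1%, against 17.9%). The replicate 1 library was more than 2-fold higher in both groups for 11 members (20.4%, against 4.38% of all genes): mmp2, mmp14a, mmp17a, MMP23B, mmp30, adamts2, adamts8a, adamts12, adamts18, ADAMTSL5 and timp2b. The members' share was already larger in each group alone, so a larger share in both follows in part from that. In the same order of libraries, mesenchyme and fibroblast markers summed to 4141 and 2104 CPM in the CHT-EC pair versus 2540 and 921 CPM in the CHT-HSPC pair, with 0 of 14 tested called. The epidermal, endothelial and thrombocyte lists were also higher in replicate 1 of both groups, and the other lists were not. For the thrombocyte list this rested on thbs1b, without which its sum was higher in CHT-EC replicate 2. The part of any of these cell types in the member values was not tested. These shares describe the libraries and carry no test.

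**Figure D4:**
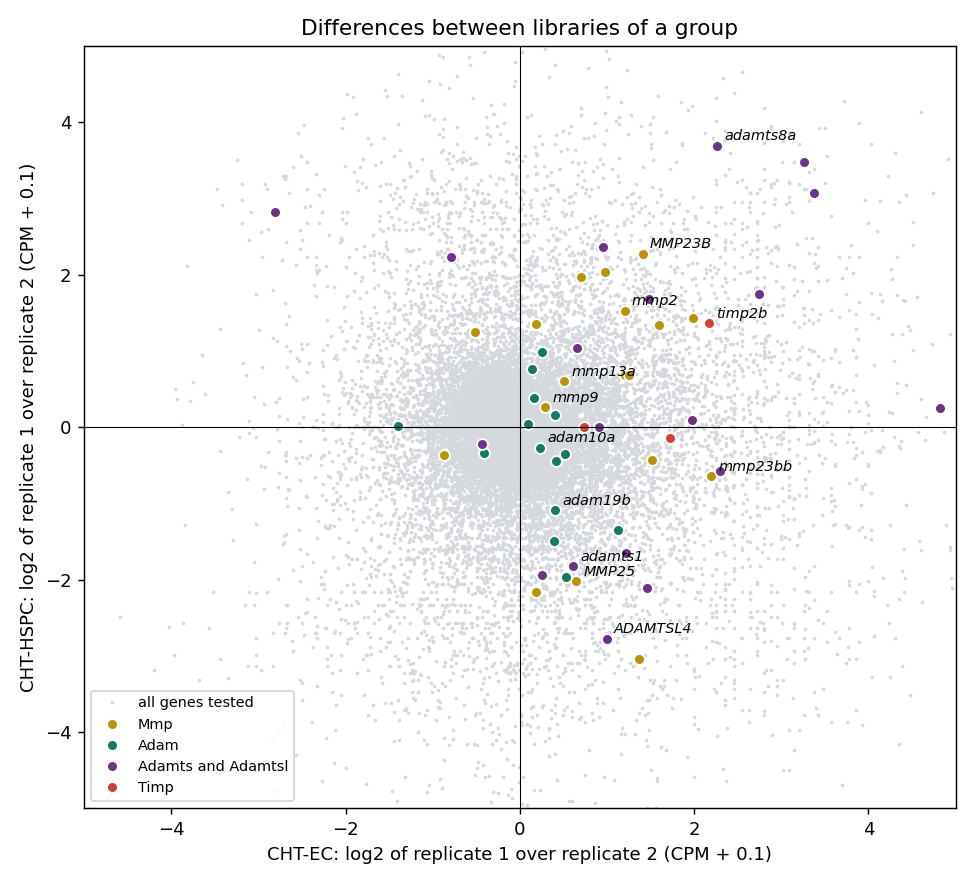
Log2 ratio of replicate 1 over replicate 2 in CHT-EC (horizontal axis) and in CHT-HSPC (vertical axis), from CPM with 0.1 added, for all genes tested in grey and the members in colour by family; genes beyond 5 on either axis are not drawn. mmp9, mmp13a and adam10a lie near the centre, timp2b, mmp2, MMP23B and adamts8a in the upper right, and MMP25, adamts1 and ADAMTSL4 in the lower right.

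Several members are neighbours on a chromosome in the RefSeq annotation of the assembly GRCz12tu, in which 54 of 64 symbols were matched. adamts1 and adamts5 are adjacent, and for both CHT-HSPC replicate 1 was the lowest library and CHT-HSPC replicate 2 lay above at least 1 CHT-EC library. adamts8a and adamts15a are adjacent as well, and both were highest in CHT-EC replicate 1, with adamts15a at 2.74 and 0 CPM in the CHT-EC pair versus 0.741 and 0.607 CPM in the CHT-HSPC pair. That library was the highest for 34 of the 54 members tested (63.0%), against 28.3% of all genes tested. mmp13a and mmp30 lie with 1 protein-coding gene between them, and mmp30 had overlapping groups where mmp13a did not. ADAMTS16 and ADAMTSL4 also have 1 gene between them. ADAMTSL4 was higher in both CHT-EC libraries, whereas ADAMTS16 had 45 counts in CHT-HSPC replicate 2 and at most 7 in any other library. The adjacent mmp20a and mmp20b had too few counts to compare. How often other neighbouring genes share such patterns was not examined.

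Other genes linked to proteolysis outside the cell were taken from a list with 68 gene rows, of which 58 were tested. It held activators, inhibitors, partners and substrates, and also cathepsins and enzymes that cross-link collagen. Of these 58, 7 were higher in CHT-EC by edgeR, against 3.78% of all genes tested, and none was higher in CHT-HSPC, against 0.752%. At an unadjusted p under 0.05 the numbers were 20, against 14.6% of all genes, and 1, against 9.23%. DESeq2 and limma-voom also placed 0 higher in CHT-HSPC. The list was chosen with earlier results of these data known, so its numbers against all genes are not independent evidence. With so small a share of all genes called on the CHT-HSPC side, 0 calls in edgeR says little. In the plasminogen system, which can activate Mmps, plaua (ENSDARG00000075265), a urokinase, was at 163 and 43.1 CPM in the CHT-EC libraries versus 1.85 and 1.47 CPM in the CHT-HSPC pair (log2 ratio 5.95 ± 0.71, adjusted p = 0.0120). Also higher in CHT-EC, by their log2 ratios, were the cathepsins ctsl.1 (4.92) and ctsba (1.73) and the lysyl oxidase relatives loxl1 (4.39), loxl2b (3.08) and loxl3b (3.94), which cross-link collagen. Without CHT-EC replicate 1 only plaua was called (adjusted p = 0.0252), against 0.546% of all genes on the CHT-EC side, and without CHT-EC replicate 2 there were 13 calls on that side (2.82% of all genes).

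Among regulators that act on the proteases directly, 4 examples chosen after their values were seen did not pass the test. reck, a membrane-anchored Mmp inhibitor, was at 110 and 63.4 CPM in the CHT-EC libraries versus 49.1 and 37.7 CPM in the CHT-HSPC pair (adjusted p = 0.147). furina, a protease that removes the propeptide of membrane-type Mmps and Adams, was at 70.8 and 54.1 CPM in the CHT-EC libraries versus 26.9 and 73.8 CPM in the CHT-HSPC pair (adjusted p = 0.744). tspan14, a tetraspanin that carries Adam10, was at 170 and 128 CPM in the CHT-EC libraries versus 196 and 195 CPM in the CHT-HSPC pair (adjusted p = 0.409), and rhbdf1a, an iRhom that carries Adam17, at 131 and 90.1 against 74.1 and 57.1 CPM (adjusted p = 0.192).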

How the data were processed

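RNA was sequenced from 4 libraries, and the authors deposited 1 table of raw counts per Ensembl gene. Per the labels' protocols, libraries were made with NEBNext Ultra and read as 150 bp pairs on a HiSeq. The tools, per the submitters' processing notes, were TopHat2 and HTSeq 0.6.1 with the build GRCz10; not given in the sources used here are strand setting, annotation release and the treatment of reads shared by gene copies. The table's HSC columns were matched to the CHT-HSPC titles by replicate number.

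Counts were filtered (filterByExpr of edgeR, minimum count 10, minimum total 15), scaled by TMM and tested by quasi-likelihood in edgeR 4.0.16 (R 4.3.3); p-values were adjusted after Benjamini and Hochberg over all 19016 genes at a threshold of 0.05, and the replicate number entered only an alternative. Each SE was taken as the size of the log2 ratio divided by the square root of F. DESeq2 1.42.0 and limma-voom (limma 3.58.1) were alternatives. The biological coefficient of variation was 0.540. Tested on simulated data, the edgeR fit of CHT-EC over CHT-HSPC, run on 18057 genes, recovered 38 of 94 genes shifted by a log2 of 2, 83 of 98 shifted by 4, and called 9 of 17865 unshifted genes. In the simulation the spread of a gene between libraries depended on its level alone, and few genes were shifted. Recovery and false calls in the real libraries may therefore differ.

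The members, the role groups, the markers and the partner list were chosen with earlier results of these data known. Fold changes with full statistics went to called members, to the 4 tested members of each family with the most counts and to all Timps; further members and the called partner genes are given with values, except 1 partner gene that is not reported here. No protein or promoter sequences were used here. Coordinates are not given, for want of a GRCz10 genome in the sources used. Counts carry no molecular identifiers, and levels of different genes are not compared because no transcript lengths were used.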

Additional observations from a re-analysis of the deposited data

How the results depend on the processing

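Members called on the CHT-EC side, 4 in the reported edgeR fit, were 15 with DESeq2, 19 without the low-count filter, 7 with the replicate number as a block (4.28% of all genes), and 3 to 8 when 1 library was left out; they were 4 with limma-voom and 3 with library totals alone. No member was higher in CHT-HSPC in any alternative fit that used all 4 libraries. The share of all genes there was 3.91% with DESeq2, 3.26% without the filter and 1.23% with limma-voom. It was 0.668% with the block and 0.542% with library totals alone. At the smaller of these shares, 0 members says little. On the CHT-EC side the share of all genes was 3.78% in the reported fit, 10.9% with DESeq2 and 8.50% without the filter. It also moved when 1 library was left out, as listed in the Results. Changes in the partner numbers given next thus came with changes over all genes, and were not tested against them. The 1 partner on the CHT-HSPC side was 1 of 65 tested without the filter, against 3.26% of all genes. The number of partner genes higher in CHT-EC (7) was 15 with DESeq2, 18 without the filter and 1 to 13 with 1 library left out, and 1 partner was higher in CHT-HSPC without the filter. Calls of mmp9, mmp13a and adam19b were kept throughout, and mmp11b was lost without CHT-EC replicate 1, with library totals alone, with DESeq2 and with limma-voom; the cause was not tested. None of the 33 single genes recomputed changed direction. They were the members with full statistics or an unadjusted p under 0.05, and the called partners. Most were thus picked for a difference in these same data, so the lack of reversals was largely fixed in advance. The replicate numbers share nothing in the labels, and deviations of same-numbered libraries from their group means correlated at 0.0167 across genes, so the block pairs libraries by number only. The members called beyond the 4 with the block were timp2b (adjusted p = 0.00628), MMP23B (0.0208) and adam28 (0.0491). With 2 libraries per group, a member that missed the threshold was not shown to be equal. Members with a few counts, such as adamts13 and mmp20a, cannot be compared at this depth.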
